A study of Mus musculus with 21 samples.

Results

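The miR-130 and miR-301 family was followed in 2 organs of the mouse auditory system, the cochlea and the superior olivary complex (SOC), from late embryonic to hearing age. Its members were the 5 entries of the count table named mmu-miR-130a-3p, mmu-miR-130b-3p, mmu-miR-130b-5p, mmu-miR-301a-3p and mmu-miR-301b-3p (written below without the prefix mmu, for mouse), of 1647 mature miRNAs listed. They were chosen by name and not by any measured value, although earlier results of these data were known at the time.

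Small RNA was sequenced from the dissected sensory epithelium of the cochlea (C57BL/6JOlaHsd mice) and from the SOC, the brainstem nuclei that receive input from both ears (C57Bl6/J mice). All animals were wild type (labelled WT), carried no engineered allele and received no treatment (labelled none). The samples were taken at embryonic day 16 (E16), on the day of birth (P0) and at postnatal day 16 (P16), with 2, 4 and 4 libraries in the cochlea and 4, 4 and 3 in the SOC. Each library was a separate biological repeat made from tissue pooled over several animals of both sexes, so differences between single animals were not measured.

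A miRNA guides the silencing machinery to transcripts that pair with its seed, bases 2 to 8 of the mature strand. One hairpin precursor can give a mature strand from each arm, named 5p and 3p, and the arms of one hairpin have different seeds and therefore different targets. The miR-130 and miR-301 3p strands are known for sharing one seed and for repressing genes of growth control and TGF-beta and BMP signalling, and miR-130a is well known from blood vessel cells.

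The mature sequences show which members can share targets. They were taken from RefSeq (build GRCm38.p6) for 4 members, and the seed is in capitals:
miR-130a-3p: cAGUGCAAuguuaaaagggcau
miR-130b-3p: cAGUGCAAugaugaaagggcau
miR-301a-3p: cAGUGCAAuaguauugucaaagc
miR-130b-5p: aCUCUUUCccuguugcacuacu
The 3 sequences from 3p arms had the seed AGUGCAA. miR-130b-5p, from the opposite arm of the miR-130b hairpin, had the seed CUCUUUC and therefore did not share it, although it was listed with the family. miR-130a-3p and miR-130b-3p were identical at 20 of 22 positions, including the first 10 bases, so a short or erroneous read of one can be counted for the other. miR-301a-3p shared only the first 9 bases with either of them. Of 1679 mature names in RefSeq, 7 had the seed AGUGCAA, and of these 7 the count table held only these 3 members. RefSeq held no mature entry for miR-301b-3p, so its seed was not checked in this way. The Mir301b hairpin contains the bases AGUGCAA.

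The hairpins lie at 3 places in the genome. Mir130b (chr16:17124061-17124142, minus strand) and Mir301b (chr16:17124400-17124496, minus strand) were separated by 257 bases, and both lay within an intron of 2610318N02Rik on the same strand. Mir301 (chr11:87113004-87113089, plus strand), which gives miR-301a, lay within an intron of Ska2, a gene of the mitotic spindle, on the same strand. Mir130a (chr2:84741115-84741178, minus strand) overlapped no other annotated gene. The Mir130b hairpin is shown because both of its arms were counted, with the 5p arm first and both arms in capitals:
Mir130b: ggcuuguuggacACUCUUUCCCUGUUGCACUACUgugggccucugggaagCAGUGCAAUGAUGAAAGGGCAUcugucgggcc

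The depth of the libraries differed between the organs. Cochlea libraries held 124400 to 447419 counts, so that 1 count was worth 2.24 to 8.04 CPM (counts scaled to the library total), and SOC libraries held 8309669 to 18053698 counts, with 1 count worth 0.0554 to 0.120 CPM. RNA isolation and library kits also differed between the organs, so levels were compared only within an organ. The SOC libraries fell into 3 sets that the labels do not name, told apart by miR-99b-5p and miR-191-5p. Set A (E16 replicates 2 and 3, P0 replicates 2 and 3) had 17.2 to 19.6% of its counts on miR-99b-5p, against at most 3.84% elsewhere. Set C (P0 replicate 4, P16 replicates 2 and 3) had 0.277 to 0.322% on miR-191-5p, against at least 3.84% elsewhere, and set B held the remaining 4 libraries. Set A held no P16 library and set C no E16 library, so SOC results are given with and without regard to the sets. Markers of the labelled tissues were counted. The 3 hair cell miRNAs (miR-96-5p, miR-182-5p and miR-183-5p) summed to 16684 to 55846 CPM in the cochlea. The neuronal miR-124-3p and miR-9-5p summed to 24419 to 115764 CPM in the SOC. At E16 the hair cell list summed to 85032 to 164652 CPM in the SOC. The hair cell list was therefore counted in both organs and did not mark the cochlea alone.

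All levels below are CPM normalized for composition (TMM). A member was called when edgeR's quasi-likelihood test gave an FDR (Benjamini-Hochberg adjusted p over all miRNAs tested in that organ) under 0.05, the fold change was over 1.5 and the libraries of the 2 time points did not overlap. miR-130a-3p, miR-130b-3p and miR-130b-5p passed the filter on low values in both organs and miR-301a-3p in the SOC, whereas miR-301b-3p passed in neither. Bulk tissue was measured, in which fewer cells of a type and less RNA per cell cannot be told apart.

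In the cochlea, all 3 testable members were lower at P16 than at E16, by 4.66-fold for miR-130a-3p, 24.4-fold for miR-130b-3p and 19.9-fold for miR-130b-5p. The 3p strands of miR-130a and miR-130b were already lower at P0, whereas the 5p strand of miR-130b was not called there and fell between P0 and P16. miR-301a-3p and miR-301b-3p were not detectable above counting noise in any cochlea library.

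miR-130a-3p stood at 2110 and 1553 CPM at E16. At P0 the 4 libraries held 674, 599, 533 and 615 CPM, and at P16 they held 607, 272, 392 and 290 CPM. Both E16 libraries were above every later one, and P0 and P16 overlapped only through P16 replicate 1. The log2 change was -1.60 (SE 0.405) for P0 vs E16 with an FDR of 0.000845 and -2.22 (SE 0.408) for P16 vs E16 with an FDR of 7.92e-07 (edgeR, Benjamini-Hochberg). P16 vs P0 was not called, at -0.62 (SE 0.355, FDR 0.239), and without P16 replicate 1 it was called, at -0.94 (FDR 0.0464).

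miR-130b-3p, the strand that shares the seed with miR-130a-3p, started lower and fell further. It stood at 1253 and 853 CPM at E16, at 369, 317, 276 and 349 CPM at P0, and at 45.9, 62.3, 33.2 and 29.7 CPM at P16. The 3 time points did not overlap, and the P16 values rested on 4 to 9 counts per library. The log2 changes were -1.68 (SE 0.432, FDR 0.000982) for P0 vs E16, -4.61 (SE 0.491, FDR 1.06e-18) for P16 vs E16 and -2.93 (SE 0.450, FDR 3.49e-09) for P16 vs P0.

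miR-130b-5p was the most counted member of the cochlea at E16 and P0. It stood at 6402 and 6846 CPM at E16, at 2749, 3570, 8765 and 4923 CPM at P0, and at 561, 358, 252 and 149 CPM at P16. P0 spread to both sides of E16, with P0 replicate 3 highest, while every P16 library was below every earlier one. The log2 change for P0 vs E16 was -0.41 (SE 0.394, FDR 0.459), that for P16 vs E16 was -4.31 (SE 0.406, FDR 1.27e-23) and that for P16 vs P0 was -3.91 (SE 0.373, FDR 8.15e-23).

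**Figure D1:**
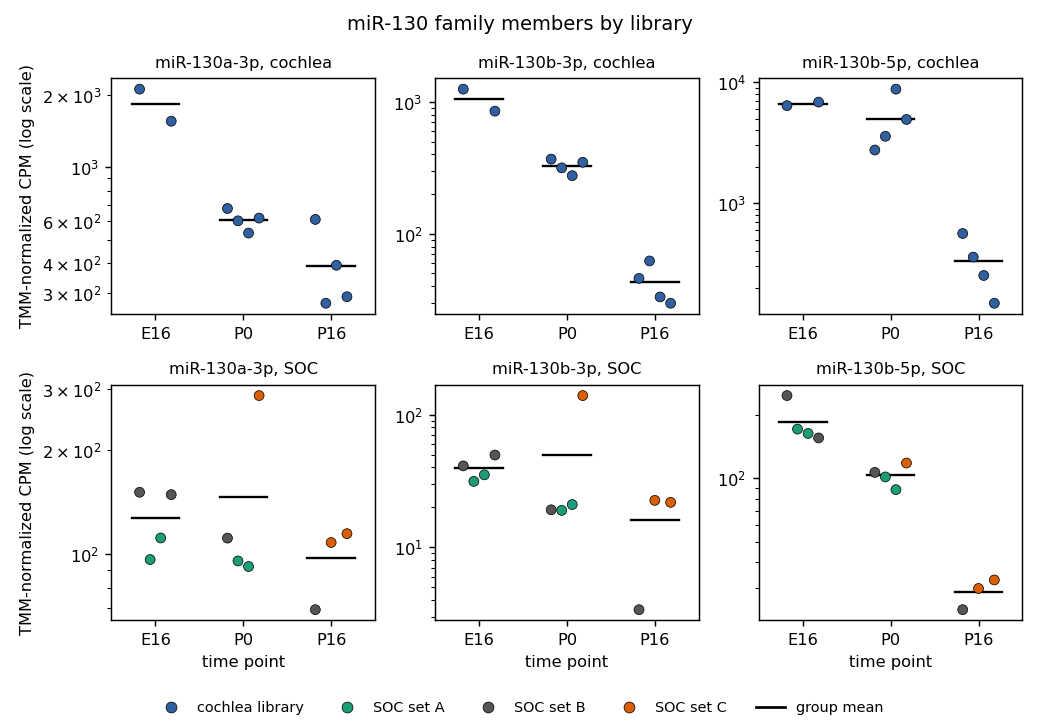
Normalized CPM of each member in each library (log axis) by time point in the cochlea and SOC, with a line at the group mean, cochlea in blue and SOC sets A, B and C in green, grey and orange. The cochlea values of miR-130b-3p fall from 853 to 1253 CPM at E16 to 29.7 to 62.3 CPM at P16, and the SOC P0 library of set C lies above the other P0 libraries for miR-130a-3p and miR-130b-3p.

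Counted over the tested members, 2 of 3 were called lower for P0 vs E16, beside 16.6% of the 896 miRNAs tested in the cochlea. For P16 vs E16 it was 3 of 3 beside 18.6%, and for P16 vs P0 2 of 3 beside 6.58%. The median log2 change of the members was -1.60, -4.31 and -2.93 in these comparisons, and that of all tested miRNAs was 0, -0.09 and 0.05. With library totals in place of the composition factors, the median of all miRNAs moved to -0.38 for P0 vs E16 and -0.58 for P16 vs E16, while the called members stayed further down, miR-130a-3p at -2.05 and -2.68 and miR-130b-3p at -2.14 and -5.14. Leaving out 1 of the 2 E16 libraries leaves a single one, assumed to vary like the other groups. Without E16 replicate 1, miR-130a-3p changed by -1.33 (FDR 0.0747) and miR-130b-3p by -1.34 (FDR 0.104), and neither was called, whereas without E16 replicate 2 both were called, at -1.92 (FDR 0.00266) and -2.05 (FDR 0.00294). The P0 calls were also lost when the spread was estimated over all 21 libraries (FDR 0.0829 and 0.127).

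Markers of other cell types also changed over time, but not all in the same direction. Both neuronal markers of the list of 2 were called lower at P0 and at P16 than at E16, their summed level being 1629 to 2304 CPM at E16, 263 to 765 CPM at P0 and 599 to 1089 CPM at P16. Of 7 markers of other epithelium, 3 were called lower in each comparison with E16 and 1 for P16 vs P0. Their sum was 14737 to 22575 CPM at E16, 5657 to 7803 CPM at P0 and 2498 to 7050 CPM at P16. The endothelial marker was miR-126a-3p, 1 of 2 on its list that the table held. It stood at 6040 to 6276 CPM at E16, 738 to 1428 CPM at P0 and 2047 to 6968 CPM at P16. It was called lower for P0 vs E16 and higher for P16 vs P0. For P16 vs P0, 1 of the 2 neuronal markers was also called higher. Fibroblast and smooth muscle markers (3 of 4 on the list in the table) stood at 47371 to 50544 CPM at E16. They stood at 52710 to 77582 CPM at P0 and 14554 to 27368 CPM at P16. Of the 3, 1 was called lower for P16 vs P0, and in each comparison with E16 1 was called lower and 1 higher. Muscle markers (3 of 4 in the table) summed to 474 to 549 CPM at E16, 218 to 477 CPM at P0 and 1097 to 4295 CPM at P16, and the oligodendrocyte marker miR-338-3p stood at 12.2 to 32.7 CPM, 6.42 to 66.5 CPM and 296 to 490 CPM. In both lists 1 marker was called higher for P16 vs E16 and 1 for P16 vs P0. For P0 vs E16, 1 muscle marker was called lower. The red blood cell markers (2 of 3 in the table) summed to 10.9 to 22.6 CPM at E16, with 1 called lower at P0 and at P16, where both were at 0 in every library. One muscle marker was at 0 in all libraries of each time point, and apart from these no marker that the table held was at 0 in every library of a time point. The 3 hair cell markers summed to 52324 to 55846 CPM at E16, 33733 to 37995 CPM at P0 and 16684 to 38390 CPM at P16. The part of these cells in the members' changes was not tested.

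The cochlea held almost no reads of the miR-301 3p strands. miR-301a-3p had between 0 and 2 counts in each of the 10 libraries, and miR-301b-3p had 0 counts in 9 libraries and 2 in E16 replicate 2. A count of 0 allows up to 3 counts, and where 1 or 2 counts were found the limit is higher. At 3 counts, scaled to library totals without composition factors, the limits were 6.71 to 10.9 CPM at E16. They were 14.5 to 16.6 CPM at P0 and 15.04 to 24.1 CPM at P16. These limits, which cover counting error only, lie far below the levels of the miR-130 strands at E16 and P0, but they are above the level of miR-301a-3p in the SOC, so the cochlea depth could not have shown such a level.

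In the SOC, the member with the clearest course was miR-130b-5p, which was 6.36-fold lower at P16 than at E16. miR-301a-3p was 5.09-fold lower at P16, where it had 1 to 5 counts per library against 8 to 32 at E16. For the seed-sharing strands of miR-130a and miR-130b no change was called across all libraries, although miR-130b-3p was called lower for P16 vs E16 with the library set as a covariate, and their values differed between the library sets by as much as between time points.

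miR-130b-5p stood at 247, 171, 163 and 155 CPM at E16, at 107, 101, 88.3 and 118 CPM at P0 and at 23.8, 30.001 and 32.9 CPM at P16. The 3 time points did not overlap. The log2 changes were -0.83 (SE 0.310, FDR 0.132) for P0 vs E16, which missed the threshold, -2.67 (SE 0.367, FDR 0.000248) for P16 vs E16 and -1.84 (SE 0.353, FDR 0.00608) for P16 vs P0. The call for P16 vs P0 was lost without set A (-1.97, FDR 0.0978) and with SOC counts thinned to the cochlea depth (-1.63, FDR 0.110). That for P16 vs E16 was kept in both. Set B alone holds a single library at P0 and at P16, and its log2 difference of -2.11 for P16 vs P0 is given as a value. The P0 library of set C, at 118 CPM, was close to the other P0 libraries, and when the set entered the fit as a covariate, the change for P0 vs E16 was -0.89 with an FDR of 0.00537.

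miR-301a-3p stood at 1.88, 1.08, 1.80 and 0.695 CPM at E16, at 1.36, 0.648, 0.627 and 1.74 CPM at P0 and at 0.188, 0.106 and 0.479 CPM at P16. All P16 libraries were below all earlier ones, and E16 and P0 overlapped. The log2 changes were -0.32 (SE 0.566, FDR 0.794) for P0 vs E16, -2.35 (SE 0.714, FDR 0.0195) for P16 vs E16 and -2.03 (SE 0.714, FDR 0.0657) for P16 vs P0. The call for P16 vs E16 was lost without P16 replicate 1 (FDR 0.0605), without P16 replicate 2 (FDR 0.0788), without set A (FDR 0.0650) and without set C (FDR 0.0956). Without P16 replicate 3 the log2 change was -3.07 (FDR 0.0198), a larger fall.

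miR-301b-3p, from the hairpin next to Mir130b, was counted less still and was not tested. Its values were 0.938, 1.23, 0.700 and 0.347 CPM at E16, 0.633, 0.648, 0.157 and 0.349 CPM at P0 and 0.470, 0.212 and 0 CPM at P16, from at most 16 counts in a library. Neighbouring time points overlapped, and no order of the levels can be read from them.

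**Figure D2:**
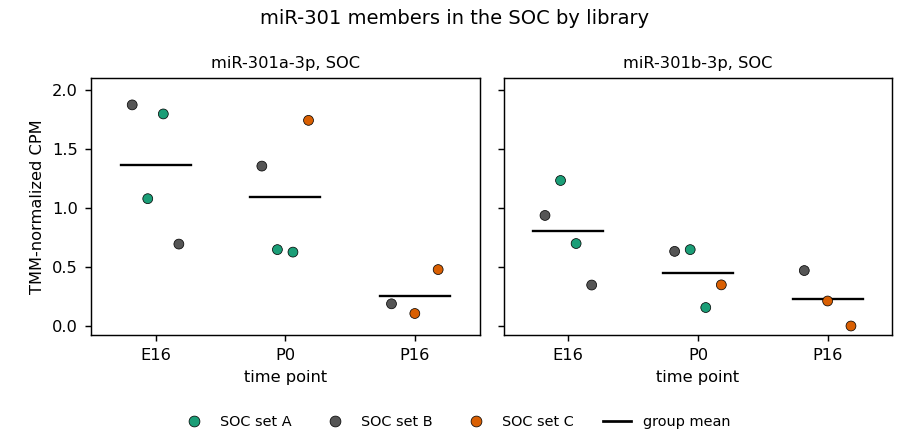
Normalized CPM of miR-301a-3p and miR-301b-3p in each SOC library (linear axis) by time point, coloured by library set, with a line at the group mean. The miR-301a-3p values at P16, 0.106 to 0.479 CPM, lie below the 0.627 to 1.88 CPM of the earlier libraries, and those of miR-301b-3p overlap between neighbouring time points.

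miR-130a-3p stood at 151, 96.4, 111 and 149 CPM at E16, at 111, 95.5, 92.1 and 288 CPM at P0 and at 69.0, 108 and 115 CPM at P16. The time points overlapped, and the single high value was P0 replicate 4, the P0 library of set C. The log2 changes were 0.21 (SE 0.427, FDR 0.837), -0.38 (SE 0.465, FDR 0.515) and -0.59 (SE 0.468, FDR 0.388) for P0 and P16 against E16 and for P16 against P0.

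miR-130b-3p stood at 41.1, 31.4, 35.2 and 49.6 CPM at E16, at 19.2, 19.0, 20.996 and 139 CPM at P0 and at 3.39, 22.6 and 21.8 CPM at P16. P0 replicate 4 was again far above the other P0 libraries, which lay below every E16 library, and P16 replicate 1, of set B, was far below the P16 libraries of set C. Across all libraries the log2 changes were 0.33 (SE 0.725, FDR 0.842), -1.30 (SE 0.813, FDR 0.208) and -1.64 (SE 0.824, FDR 0.173) for P0 and P16 against E16 and for P16 against P0, and none was called.

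Within each set, however, miR-130b-3p was lower at every later time point. In set B it went from 41.1 and 49.6 CPM at E16 to 19.2 CPM at P0 and 3.39 CPM at P16, in set A from 31.4 and 35.2 CPM at E16 to 19.0 and 20.996 CPM at P0, and in set C from 139 CPM at P0 to 22.6 and 21.8 CPM at P16. With the set as a covariate in edgeR, the log2 change was -0.94 (FDR 0.00443) for P0 vs E16, -3.62 (FDR 5.28e-07) for P16 vs E16 and -2.67 (FDR 7.13e-06) for P16 vs P0. Of these, the one for P16 vs E16 was called, and in the other 2 comparisons the libraries of the time points overlapped, so they were not. Without set C it was -0.99 (FDR 0.0413), -3.37 (FDR 0.000876) and -2.38 (FDR 0.0173), all 3 called, with P16 replicate 1 as the only P16 library, which is assumed to vary like the others. Set B alone holds 1 library at P0 and 1 at P16, with a spread from the 2 E16 libraries only, and its log2 differences of -1.13, -3.58 and -2.45 are given as values. The direction for P0 vs E16 therefore turned with the treatment of the sets, and without P0 replicate 4 alone it was -0.93 (FDR 0.338).

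For miR-130a-3p the order within sets was the same but the steps were smaller. In set B it went from 151 and 149 CPM at E16 to 111 CPM at P0 and 69.0 CPM at P16, and in set C from 288 CPM at P0 to 108 and 115 CPM at P16. In set A the E16 libraries, at 96.4 and 111 CPM, lay just above the P0 libraries, at 95.5 and 92.1 CPM. With the set as a covariate, the log2 change for P16 vs E16 was -1.28 with an FDR of 0.000657, but the libraries of the 2 time points overlapped, so it was not called.

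Counted over the tested members, 0 of 4 were called lower for P0 vs E16 by edgeR, beside 4.18% of the 694 miRNAs tested in the SOC, with 1 at an unadjusted p under 0.05. DESeq2 called 1, miR-130b-5p, and gave no adjusted p for miR-130b-3p. In either direction DESeq2 called 84 of the 694 miRNAs, against 46 by edgeR. For P16 vs E16 2 of 4 were called lower beside 20.0%, and for P16 vs P0 1 of 4 beside 8.07%. The members' median log2 change was -0.06, -1.83 and -1.74, against 0.17, 0.08 and -0.15 for all tested miRNAs.

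**Figure D3:**
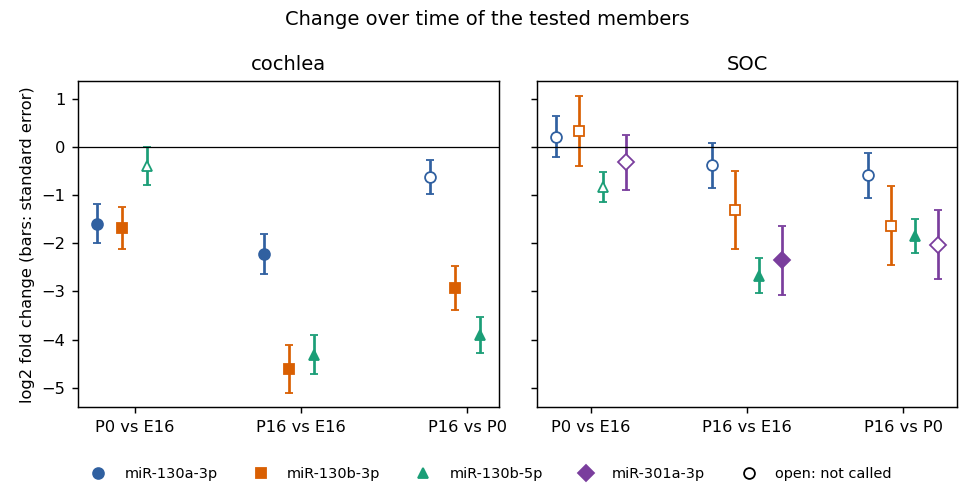
The log2 fold change of each tested member in each comparison, cochlea and SOC, with bars of 1 SE, filled symbols for called members and open symbols for the others. For P16 vs E16 every point lies below 0, from -0.38 for miR-130a-3p in the SOC to -4.61 for miR-130b-3p in the cochlea.

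Marker levels in the SOC also moved with time and with the sets. For comparison, 20.0% of all tested miRNAs were called lower for P16 vs E16, 21.2% higher, and 4.18% lower for P0 vs E16. The 2 neuronal markers summed to 35304 to 115764 CPM at E16 and 24419 to 38734 CPM at P16. Of these, 1 was called higher for P16 vs E16. Of 3 fibroblast and smooth muscle markers, 1 was called lower at P0 and at P16 than at E16. All 3 hair cell markers were called lower for P16 vs E16, their sum being 4392 to 28710 CPM at P0 and 521 to 3501 CPM at P16. Of 7 markers of other epithelium, 4 were tested and 3 of these were called lower at P0 and at P16 than at E16, with a sum of 926 to 1963 CPM at E16, 56.2 to 195 CPM at P0 and 49.7 to 146 CPM at P16. One of the 7 was at 0 in all P0 libraries. The endothelial marker miR-126a-3p was high in the set C libraries, at 7481 CPM in P0 replicate 4 and at 3735 and 6155 CPM in P16 replicates 2 and 3, against 821 to 1361 CPM in the other SOC libraries. The red blood cell markers (2 of 3 on the list in the table) summed to 136 CPM in P0 replicate 4 and to 154 and 189 CPM in the P16 libraries of set C, against 28.6 to 91.9 CPM elsewhere. miR-130a-3p and miR-130b-3p were high in the same P0 library. Muscle markers summed to 113 to 292 CPM at E16 and 9.01 to 24.2 CPM later, and the oligodendrocyte marker miR-338-3p rose from 25.5 to 90.1 CPM at E16 to 403 to 1959 CPM at P16, where it was called higher. The part of any of these cells in the members' values was not tested.

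The arms of the miR-130b hairpin were in different proportion from library to library. In the cochlea there were 5.11 and 8.03 counts of miR-130b-5p for each count of miR-130b-3p at E16, 7.45, 11.3, 31.7 and 14.1 at P0, and 12.2, 5.75, 7.60 and 5 at P16. The ratio was widest at P0 and overlapped between E16 and P16, where both arms had fallen. In the SOC it was 3.13 to 7.03 in all libraries of sets A and B, from E16 to P16. In set C it was 0.848 at P0 and 1.33 and 1.51 at P16, so that P0 replicate 4 was the one library of either organ in which the 3p arm was counted more. Ligation and amplification differ between strands and kits, so a ratio between arms is a ratio of counts and not of molecules.

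The 2 seed-sharing miR-130 strands also shifted against each other. In the cochlea, the counts of miR-130a-3p were 1.68 to 1.93 times those of miR-130b-3p in all 6 libraries of E16 and P0, and 13.2, 4.38, 11.8 and 9.75 times at P16. All P16 libraries were above all earlier ones. In the SOC the ratio was 3.00 to 3.67 at E16, 5.80, 5.03, 4.38 and 2.07 at P0, and 20.4, 4.78 and 5.25 at P16. The highest value was again P16 replicate 1 of set B, and the lowest was P0 replicate 4 of set C. Of the summed counts of the 3p members, miR-301b-3p included, miR-130a-3p made up 62.8 to 65.9% in the cochlea at E16 and P0. At P16 it made up 81.4 to 92.2%.

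**Figure D4:**
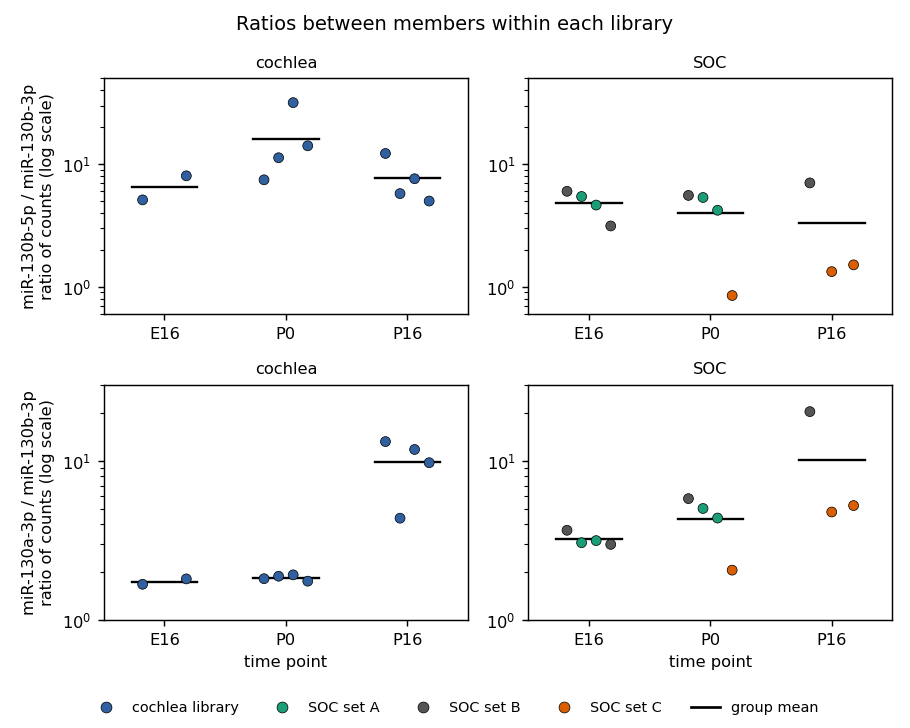
Ratio of counts in each library (log axis) for miR-130b-5p to miR-130b-3p and for miR-130a-3p to miR-130b-3p, by organ and time point, with cochlea in blue and SOC sets A, B and C in green, grey and orange. The arm ratio is 0.848 to 1.51 in set C and 3.13 to 7.03 in the other SOC libraries, and the ratio of the 3p strands in the cochlea is 1.68 to 1.93 before P16 and 4.38 to 13.2 at P16.

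Whether the change over time differed between the organs was tested as an interaction over the 545 miRNAs that passed the filter in both. For P16 vs E16, 1 of 3 members differed, miR-130b-3p, beside 16.9% of all tested. Its log2 change was higher in the SOC than in the cochlea by 3.23 (SE 0.987, FDR 0.0260), that is, it fell less in the SOC. The values for miR-130a-3p and miR-130b-5p were 1.71 (SE 0.683, FDR 0.0827) and 1.47 (SE 0.701, FDR 0.149). The difference in miR-130b-3p was 0.82 (FDR 0.272) with the SOC set as a covariate and 0.96 (FDR 0.384) without set C, and neither passed the threshold. Leaving out single libraries also ended it, with FDR values of 0.0755 and 0.0730 without SOC P16 replicates 2 and 3, 0.0711 without cochlea E16 replicate 1, and 0.0536 and 0.0507 without cochlea P16 replicates 3 and 4.

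For P0 vs E16, 0 of 3 members differed between the organs by edgeR, beside 11.9%, with 2 at an unadjusted p under 0.05 and 1 by DESeq2. Of all 545 miRNAs, 117 differed by DESeq2 and 65 by edgeR. The differences, SOC minus cochlea, were 1.71 (SE 0.662, FDR 0.0836) for miR-130a-3p, 1.93 (SE 0.920, FDR 0.150) for miR-130b-3p and -0.55 (SE 0.691, FDR 0.608) for miR-130b-5p. For P16 vs P0, 0 of 3 members differed by edgeR, beside 6.42%, with 1 at an unadjusted p under 0.05, miR-130b-5p at 2.02 (SE 0.644, FDR 0.0566), and 1 by DESeq2. Here 78 of the 545 miRNAs differed by DESeq2 and 35 by edgeR. The median difference of all 545 miRNAs was 0.52, 0.38 and -0.11 for P0 and P16 against E16 and for P16 against P0. With library totals the first 2 became 1.22 and 1.06. The median over all miRNAs was thus also positive for P0 and P16 against E16 in both fits, but its size depended on the setting. With SOC counts thinned to the cochlea depth it was 0.003 for P16 vs E16. Its part in the members' differences was not tested. The differences of miR-130b-5p for P0 vs E16 and for P16 vs P0 were opposite in sign to the median. Organ and library kit cannot be told apart.

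The remaining arms of the hairpins, miR-130a-5p, miR-301a-5p and miR-301b-5p, were low in both organs. In the SOC, all 3 were called lower for P16 vs E16, beside 20.0% of all tested miRNAs, and 1, miR-130a-5p, for P16 vs P0, beside 8.07%. miR-130a-5p had 26 to 78 counts per library at E16 and 1 or 2 at P16 and was at least 11.8-fold lower there, and miR-301b-5p was at least 7.64-fold lower, both against a floor of 3 counts per library. miR-301a-5p fell from 9.29 to 12.3 CPM at E16 to 3.57, 1.06 and 0.287 CPM at P16, a log2 change of -2.69 (SE 0.677, FDR 0.00761 by edgeR). It was counted more than miR-301a-3p in 10 of 11 SOC libraries. In the cochlea, 2 of 3, miR-130a-5p and miR-301a-5p, were called lower for P0 vs E16, beside 16.6% of all tested miRNAs. For P16 vs E16 it was 1 of 3, miR-130a-5p, beside 18.6%. miR-301a-5p had 0 counts in all 4 P0 libraries, and against the floor it was at least 1.42-fold lower, a bound under the 1.5-fold threshold. miR-130a-5p was at least 3.11-fold lower at P16 than at E16. As fitted, the median log2 change of the 3 for P16 vs E16 was -3.69 in the SOC and -2.63 in the cochlea. With those at the floor set to their bound, or to 0 where no bound exceeded 1-fold, the medians were -2.93 and -0.22. These last 2 values are limits and not measured changes, and the cochlea libraries were far shallower.

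Seeds that are shifted by one base against AGUGCAA can pair with overlapping sites, and 5 such miRNAs were set beside the family. Their sequences (RefSeq) show the shift, with the seed in capitals:
miR-148a-3p: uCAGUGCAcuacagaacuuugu
miR-19b-3p: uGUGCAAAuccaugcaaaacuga
miR-148b-3p and miR-152-3p had the seed of miR-148a-3p, and miR-19a-3p had that of miR-19b-3p. In the cochlea, 4 of 5 were called lower for P0 vs E16, beside 16.6% of all tested miRNAs, and 3 of 5 for P16 vs E16, beside 18.6%, while for P16 vs P0 1, miR-148a-3p, was called higher. miR-148a-3p stood at 256 and 306 CPM at E16, 19.5 to 37.4 CPM at P0 and 54.5 to 163 CPM at P16, and its log2 change for P16 vs P0 was 1.92 (SE 0.543, FDR 0.00436), opposite in sign to those of the 3 tested members. miR-19b-3p, of the growth-promoting miR-17-92 cluster, had 191 and 292 counts at E16 and 1 or 2 per library at P0, at least 30.9-fold lower. In the SOC, 3 of 5 were tested, and 2, miR-148a-3p and miR-148b-3p, were called lower for P16 vs E16, beside 20.0%, with log2 changes of -2.86 (SE 0.622, FDR 0.00399) and -2.89 (SE 0.715, FDR 0.00703).

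The miRNAs most like each 3p member were sought by the Pearson correlation of log2 CPM over the libraries of an organ, among those averaging at least 50 CPM. In the cochlea (10 libraries), miR-25-3p (r = 0.981) and miR-335-5p (r = 0.970) were most like miR-130a-3p, and miR-487b-3p (r = 0.964) and miR-674-3p (r = 0.958) were most like miR-130b-3p. In the SOC (11 libraries), miR-181a-2-3p (r = 0.938) and miR-181c-3p (r = 0.906) were most like miR-130a-3p, miR-210-3p (r = 0.935) and miR-181a-2-3p (r = 0.929) most like miR-130b-3p, and miR-335-5p (r = 0.928) and miR-449a-5p (r = 0.860) most like miR-301a-3p. Among the members, miR-130a-3p and miR-130b-3p had a correlation of 0.859 (cochlea) and 0.897 (SOC), and the arms of the miR-130b hairpin one of 0.926 and 0.642. The libraries of these correlations share their time points, depth and, in the SOC, their sets.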

How the data were processed

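Small RNA was sequenced in 10 cochlea and 11 SOC libraries. The authors deposited 1 table of raw counts, reads assigned to each of 1647 mature miRNAs per library, with no normalization applied. By the paper's methods, reads were aligned with Bowtie to a reference made from the mouse miRNAs of MirGeneDB. The submitters' processing notes name Bowtie2 2.2.5, DESeq2 and mm10. The table carries miRBase names, and the step from reads to these names is not given in the sources used here. Reads that fit miR-130a-3p and miR-130b-3p equally could go to either. Every count column matched the label of 1 library.

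Within each organ, the counts of miRNAs that exceeded 1 CPM in 2 or more libraries of a time point were tested by edgeR 4.0.16 (R 4.3.3, TMM factors, quasi-likelihood test). Adjusted p-values are Benjamini-Hochberg values over all miRNAs tested, with thresholds of 0.05 and a fold change of 1.5. Standard errors were derived from the log2 change and its F statistic. Organ differences were an organ by time interaction in 1 model. For groups with no library above 3 counts, the fold was computed against 3 counts per library. Limits and intervals cover counting error only, since PCR copies and molecules cannot be told apart. Total counts were 124400 to 447419 in the cochlea and 8309669 to 18053698 in the SOC, so low cochlea values are coarse.

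The alternatives were DESeq2 1.42.0 with its default outlier handling, which gave no adjusted p for miR-130b-3p in the SOC and in the organ difference, RLE size factors, library totals, no filter, at least 10 counts in every library, the replicate number as a block, all 21 libraries in 1 fit, no criterion on overlap, the SOC set as a covariate, the SOC without set A, SOC counts thinned to the cochlea depth, and leaving out each library. Leaving out set C and set B alone were added after seeing the data. The sets were defined by over 10% of counts on miR-99b-5p (A) and under 1% on miR-191-5p (C). E16 and P0 libraries of the SOC with the same replicate number deviated together in 4 of 4 pairs (r = 0.251 to 0.490), against 2 of 12 other pairs. This pairing comes from the values and is not stated by the labels.

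The text names the 5 members, the other arms of their hairpins, 5 miRNAs with a seed shifted by one base, and for each 3p member the 2 miRNAs with the highest correlation in each organ among those with a mean of at least 50 CPM. Members, lists and markers were chosen with earlier results of these data known. Sequences are from RefSeq (GRCm38.p6), and neighbouring genes from GENCODE for the same build. The scripts were tested on simulated counts. Figures were drawn with matplotlib 3.10.9.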

Additional observations from a re-analysis of the deposited data

Results flagged for a closer look

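Within groups of 4 libraries, 16 sets of member values were examined for a library far from the others by Dixon's criterion at the 0.05 level, and 2 stood out, where chance alone is expected to give about 1. Both were in SOC P0 replicate 4, the P0 library of set C. miR-130a-3p stood at 288 normalized CPM there, against 92.1 to 111 CPM in the other 3 libraries, and miR-130b-3p stood at 139 normalized CPM, against 19.0 to 20.996 CPM. The other members of that library, miR-130b-5p at 118 CPM and miR-301a-3p at 1.74 CPM, did not stand apart by this criterion.

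The change of miR-130b-3p for P16 vs E16 differed between the organs, by a log2 value of 3.23 (SOC minus cochlea, FDR 0.0260 in the interaction test of edgeR), with changes of -1.30 in the SOC and -4.61 in the cochlea. With the SOC set as a covariate the SOC change was -3.62 and the difference 0.82 (FDR 0.272), without set C the difference was 0.96 (FDR 0.384), and it also missed the threshold without any one of 5 libraries: SOC P16 replicate 2 or 3, cochlea E16 replicate 1, and cochlea P16 replicate 3 or 4.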

How the results depend on the processing

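Over all alternatives, single members kept their direction and their side of the threshold in 629 cases, passed it newly in 32, no longer passed it in 22 and turned direction in 28. The fall in the cochlea for P16 vs E16 was called in every alternative run for miR-130a-3p, miR-130b-3p and miR-130b-5p where the member was tested, and so was the fall of miR-130b-5p in the SOC. Some of these runs held a single library at a time point: those without a cochlea E16 library, without set C and in set B alone. In them the spread at that time point was assumed and not measured. With the replicate block, the number of called members stayed at 2, 3 and 2 in the cochlea and at 0, 2 and 1 in the SOC, and no call changed. In that block miR-130b-3p turned to -0.35 for P0 vs E16 in the SOC. Same-numbered libraries deviated together (r over 0.1) in 1 of 2, 0 of 2 and 0 of 4 pairs in the cochlea, and in 0 of 3 and 1 of 3 pairs with P16 in the SOC.

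Requiring at least 10 counts in every library left fewer members tested and gave 1 called member in place of 2 for P0 vs E16 and P16 vs P0 in the cochlea and for P16 vs E16 in the SOC, and 1 organ difference for P0 vs E16. Fitting all 21 libraries together gave 0 for P0 vs E16 in the cochlea and 1 for P16 vs E16 in the SOC, where miR-130a-3p turned to 0.094. DESeq2 called 1 for P0 vs E16 and 2 for P16 vs P0 in the SOC, and 1, 0 and 1 organ differences for P0 and P16 against E16 and for P16 against P0. Library totals gave 2, 3 and 1 organ differences. Over all 545 miRNAs tested in both organs, organ differences numbered 65, 92 and 35 in the main fit. DESeq2 gave 117, 138 and 78 of the 545, and library totals gave 143, 129 and 41. With the SOC set as a covariate the SOC counts were 1 for P0 vs E16, 3 for P16 vs E16, where miR-130b-3p was newly called, and 2 for P16 vs P0, and the organ differences 1, 0 and 1. Without set C they were 1 and 2, and the organ difference for P16 vs E16 was 0. Without set A, 1 was called for P16 vs E16, 0 for P16 vs P0 and 0 organ differences for P16 vs E16, and thinning the SOC counts gave the same 3 numbers. Set B alone holds a single library at P0 and at P16, so no count is given for it. Leaving out 1 library gave 0 to 2 called members for P0 vs E16 in the cochlea, 1 to 2 for P16 vs E16 in the SOC, and 0 to 2 organ differences for P16 vs E16 and for P16 vs P0.

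Directions turned only in comparisons that had not been called. For P0 vs E16 in the SOC, miR-130b-3p was -0.94 with the set as a covariate, -0.99 without set C, -1.13 in set B alone and -0.93 to 0.64 without single libraries, and miR-130a-3p was -0.18, -0.34, -0.32 and -0.28 to 0.37, both lowest without P0 replicate 4. miR-301a-3p was 0.22 without set A and 2.75 after thinning. The organ difference of miR-130a-3p for P16 vs P0, near 0 at first, was -0.13 by DESeq2 and by RLE, -0.38 with at least 10 counts, -0.61 with the set as a covariate, -0.24 without set A and -0.16 to 0.58 without single libraries. That of miR-130b-5p for P0 vs E16 was 0.23 with library totals, 0.19 with at least 10 counts and -0.80 to 0.034 without single libraries. The causes of these moves were not tested. At the cochlea depth, levels of miR-301a-3p such as those of the SOC could not be detected.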
